A study of Mus musculus with 6 samples.

Results

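Cyp11a1 and Hdc encode enzymes that make a steroid and an amine with effects on immune cells, and both transcripts were found in a small set of T cells from mouse melanomas. They are 2 of the 14597 genes in a table of unique molecular identifiers (UMIs, the count of captured mRNA molecules) over 12818 cells. A Cyp11a1 UMI was present in 41 cells and an Hdc UMI in 109 cells. Both genes were picked with earlier results of these data known, for where they were detected and with which cytokines, so their values are given as a description, with no test of significance.

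Cyp11a1 is the mitochondrial enzyme that cleaves the side chain of cholesterol to give pregnenolone, the first step in the synthesis of every steroid hormone. It draws electrons from Fdx1 and Fdxr, and in adrenal gland and gonad the protein Star brings cholesterol to it. Pregnenolone made by T cells has been described in type 2 helper cells (Th2 cells, which secrete IL-4, IL-5 and IL-13 and depend on the transcription factor Gata3) and in tumors. Hdc decarboxylates histidine to histamine, a product for which mast cells and basophils are best known, and histamine acts through the receptors Hrh1 to Hrh4.

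The cells were live TCRβ+ cells sorted from subcutaneous B16-F10 tumors, a transplanted mouse melanoma line, at day 16 after implantation. All animals carried Foxp3-EGFP-DTR, in which the Foxp3 gene itself drives a green fluorescent protein and the diphtheria toxin receptor. Injected diphtheria toxin (DTx) then kills regulatory T (Treg) cells in every tissue, not in the tumor alone. They were 8 to 14 weeks old and of both sexes, and the labels give 3 samples from animals treated with PBS and 3 from animals treated with DTx between days 7 and 13. The purpose of the experiment was to see how conventional T (Tconv) cells change once Treg cells are gone. The table names its 6 libraries only by a number at the end of each cell barcode, no label ties a number to a sample, and no comparison of PBS with DTx was therefore made.

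The 6 libraries, called library 1 to library 6, held 1768 to 2640 cells and 1916305 to 5127776 UMIs each, with a median of 610 to 2499.5 UMIs per cell. Library 4 was the deepest by median. Cells with a Foxp3 UMI and none of Cd8a or Cd8b1 numbered 49, 30, 17, 0, 0 and 1 in libraries 1 to 6. Barcodes shared between libraries (76 barcodes, 152 cells) included none of the cells with a Cyp11a1 or Hdc UMI.

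The DNA upstream of the transcription starts is shown first, because Gata3, which binds GATA motifs, was found more often than expected with both transcripts. Each run is the strand of the gene from 5′ to 3′, ending at the base before a RefSeq start on GRCm38.p6, and capitals mark the motif NGATAN with A or T as its first letter and A or G as its last, on either strand. No hit overlapped another. Cyp11a1 (gene ID 13070) lies on chromosome 9 from 57998024 to 58027031 on the plus strand, and Hdc (gene ID 15186) on chromosome 2 from 126593659 to 126624025 on the minus strand.
Cyp11a1, first start, chr9:57997774-57998023, plus strand: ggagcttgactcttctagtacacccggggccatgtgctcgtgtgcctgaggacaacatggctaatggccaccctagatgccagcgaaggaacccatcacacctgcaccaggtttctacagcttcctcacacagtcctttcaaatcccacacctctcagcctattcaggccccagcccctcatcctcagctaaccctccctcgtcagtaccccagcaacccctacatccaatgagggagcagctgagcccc
Cyp11a1, part upstream of the other start, chr9:58014709-58014738, plus strand: ccatgaaaatggAGATAGcaaagttgcctt
Hdc, start at 126618678, chr2:126618679-126618928, minus strand: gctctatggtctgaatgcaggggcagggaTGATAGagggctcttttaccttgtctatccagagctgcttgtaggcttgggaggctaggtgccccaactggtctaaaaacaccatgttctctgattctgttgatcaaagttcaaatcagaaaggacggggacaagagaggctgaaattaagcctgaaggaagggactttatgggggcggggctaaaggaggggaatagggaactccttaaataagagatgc
The motif was absent from the 250 bases before the first Cyp11a1 start and occurred once before its other start (58014952), at position -231. It occurred once before the Hdc start shown (126618678, which lies inside the span of the gene), at position -221. It was present in the 250 bases before 8718 of 32851 mouse starts (26.5%), so a match is common and marks no binding site by itself. The stretch before the other Cyp11a1 start lies inside an annotated exon, whereas the other 2 stretches lie outside exons. Gm17322, a noncoding RNA that overlaps the upstream part of Cyp11a1 on the same strand, had 4 UMIs in the whole table.

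Most Cyp11a1 was detected in 1 library. The 93 UMIs fell in libraries 1 to 6 as 0, 0, 3, 74, 11 and 5, so that library 4 held 79.6% of them. The positive cells numbered 0, 0, 3, 30, 5 and 3. As a share of cells this was 1.70% in library 4 (exact binomial 95% interval 1.15 to 2.41), 0.252% in library 5 (0.0818 to 0.586), 0.148% in library 6 and 0.132% in library 3. In libraries 1 and 2 it was 0 of 2124 and 0 of 2640, counts that allow at most 0.141% and 0.114%. The interval of library 4 lay above those of all the other libraries, and without library 4 the share in the pool was 0.0995% in place of 0.320% (0.230 to 0.434). These intervals, like all those below, cover counting error only and say nothing of the spread between animals.

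Hdc was spread more widely. Positive cells numbered 6, 5, 11, 43, 27 and 17 in libraries 1 to 6, and the UMIs 9, 5, 13, 170, 95 and 38. The share was 2.43% in library 4 (1.77 to 3.26), 1.36% in library 5 (0.897 to 1.97) and 0.837% in library 6. It was 0.282%, 0.189% and 0.485% in libraries 1, 2 and 3. Library 4 was again the highest, but its interval overlapped that of library 5, and it held 51.5% of the UMIs where it held 79.6% of those of Cyp11a1. On a scale that takes depth into account, Cyp11a1 reached 14.4 UMIs per 1000000 in library 4 (exact Poisson interval 11.3 to 18.1) and 2.15 in library 5. Hdc reached 33.2 per 1000000 in library 4 (28.4 to 38.5), 18.5 in library 5 (15 to 22.7), 10.8 in library 6 and 1.57 to 6.78 in libraries 1 to 3. The order of the libraries was thus nearly the same for both genes, with the step from library 4 to library 5 wider for Cyp11a1.

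**Figure D1:**
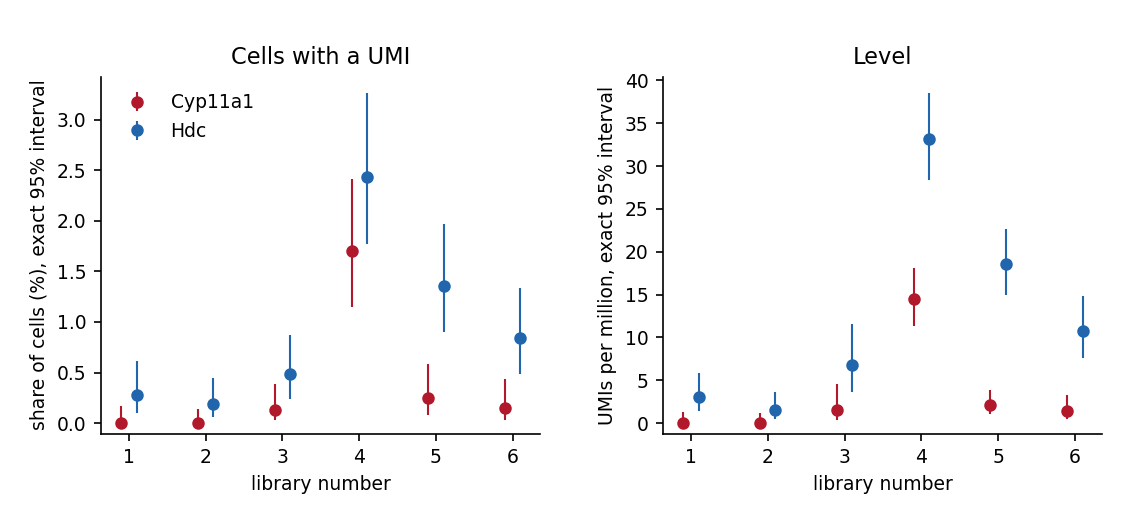
Share of cells with a UMI (percent) and UMIs per 1000000 for Cyp11a1 and Hdc in libraries 1 to 6, with exact 95% intervals for counting error. Library 4 stands highest for both genes, at 1.70% and 14.4 per 1000000 for Cyp11a1 and 2.43% and 33.2 per 1000000 for Hdc, and Cyp11a1 is at 0 in libraries 1 and 2.

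Depth differed between libraries, and each cell was therefore also thinned at random to 1000 UMIs, leaving out shallower cells. Cyp11a1 was then found in 13 of 1679 cells of library 4 (0.774%, 0.413 to 1.32), in 2 of 1885 cells of library 5 (0.106%) and in 2 of 1413 cells of library 6 (0.142%). Hdc was found in 19 of 1679 cells of library 4 (1.13%), 16 of 1885 of library 5 (0.849%) and 7 of 1413 of library 6 (0.495%). In library 3 it was 2 of 468 cells for Cyp11a1 (0.427%, 0.0518 to 1.54) and 3 of 468 for Hdc (0.641%). At 1000 UMIs library 4 kept the highest share for both genes. Its interval for Cyp11a1 overlapped those of libraries 3 and 6, and for Hdc those of all the other libraries.

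Most positive cells held few molecules. Of the 41 Cyp11a1+ cells, 20 had 1 UMI and 21 (51.2%) had at least 2, up to 10 in a single cell. Of the 109 Hdc+ cells, 61 had 1 UMI and 48 (44.0%) had at least 2, up to 24. The cells with at least 2 held 78.5% of the Cyp11a1 UMIs and 81.5% of the Hdc UMIs. Most molecules of both genes thus came from cells with more than 1.

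These cells were rich in RNA. Their median was 5018 UMIs for Cyp11a1+ cells (961 to 8694) and 3166 for Hdc+ cells (464 to 8895), against 1250.5 over all cells. More than 2000 genes were detected in 11 of 41 Cyp11a1+ cells (26.8%), 12 of 109 Hdc+ cells (11.01%) and 1.93% of all cells. The deposited cells had been limited to 2500 genes each, a limit that would remove the deepest cells first, and its part in these counts was not tested. No caller for doublets was run. Comparisons between genes below were matched for library and depth.

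The positive cells carried T cell transcripts and, of the markers with a row in the table, almost none from other lineages. A UMI of Cd3d, Cd3e or Cd3g was present in 40 of 41 Cyp11a1+ cells (97.6%) and 106 of 109 Hdc+ cells (97.2%), against 90.4% of all cells. A UMI of a T cell receptor constant gene (Trac, Trbc1, Trbc2) was present in 32 Cyp11a1+ cells (78.0%) and 81 Hdc+ cells (74.3%), against 71.4% of all cells. The summed level of the T cell list was 43.7 per 10000 UMIs in Cyp11a1+ cells, 49.1 in Hdc+ cells and 52.3 in cells with neither. Mast cells and basophils were looked for in particular, as the classical makers of histamine. Of 15 of their markers 3 have a row in the table, and these had 1 UMI in the Cyp11a1+ cells and 2 in the Hdc+ cells. Per 10000 UMIs that was 0.0520 and 0.0560, against 0.0192 in cells with neither gene. Markers of neutrophils, macrophages and stroma were at 0 UMIs in both sets of cells, but only 2 of 7, 5 of 11 and 2 of 5 have a row. In cells with neither gene they stood at 0.0150, 0.426 and 0.00468 per 10000 UMIs. At such low rates the 0 for neutrophils and stroma says little. B cell markers were at 0 and 8 UMIs. The melanoma markers had 0 and 2 UMIs. Genes that group 2 innate lymphoid cells share with Th2 cells (Il1rl1, Arg1, Klrg1, Rora, Il17rb, Calca and Nmur1) were seen in 33 of 41 Cyp11a1+ cells and 66 of 109 Hdc+ cells, at 9.83 and 7.93 per 10000 UMIs, against 2.46 in cells with neither. Most of the positive cells thus had receptor transcripts of T cells, and how many of the others were cells of another lineage was not tested.

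To place the transcripts among T cell subsets, cells were grouped by the UMIs they carried, with Cd4 but no Cd8a, Cd8b1 or Foxp3 for CD4+ Tconv cells, Cd8a or Cd8b1 without Cd4 or Foxp3 for CD8+ cells, and Foxp3 without Cd8a or Cd8b1 for Treg cells. Cyp11a1 was found in 14 of 1205 CD4+ Tconv cells (1.16%, 0.637 to 1.94) and 2 of 4497 CD8+ cells (0.0445%, 0.00539 to 0.161). The median depth of these populations was close, at 1622 and 1708 UMIs. The share in CD8+ cells was taken as a background, and how much of it came from free RNA was not tested. The intervals of the 2 populations did not overlap. Per 1000000 UMIs the level was 14.2 in CD4+ Tconv cells and 0.405 in CD8+ cells. Among the Foxp3+ cells so gated, 1 of 97 had a Cyp11a1 UMI (1.03%). It lay in library 3, where 0 of 123 CD4+ Tconv cells had one. A further 22 of the 41 Cyp11a1+ cells (53.7%) had no UMI of any of these gating genes, out of 6838 such cells with a median of 956.5 UMIs (0.322%, 0.202 to 0.487).

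Hdc showed the same order. It was found in 33 of 1205 CD4+ Tconv cells (2.74%, 1.89 to 3.82), 13 of 4497 CD8+ cells (0.289%, 0.154 to 0.494) and 55 of 6838 cells without a gating UMI (0.804%). None of the 97 gated Foxp3+ cells had Hdc (at most 3.09%), so that no difference from CD4+ Tconv cells was detectable. All but 1 of these Foxp3+ cells lay in libraries 1 to 3, so the pooled shares also differ by library. In those libraries CD4+ Tconv cells had Hdc in 1 of 145, 0 of 151 and 2 of 123. The level of Hdc was 51.3 UMIs per 1000000 in CD4+ Tconv cells and 1.62 in CD8+ cells. Cells with UMIs of both Cd4 and Cd8a or Cd8b1, which can be doublets, numbered 168 with a median of 4233.5 UMIs, and 2 of them had Cyp11a1 and 8 had Hdc.

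Within CD4+ Tconv cells, at the depth sequenced, the libraries did not behave alike for both genes. Cyp11a1 was found in 0 of 145, 0 of 151, 0 of 123, 10 of 305 (3.28%, 1.58 to 5.95), 2 of 293 (0.683%) and 2 of 188 cells (1.06%) in libraries 1 to 6. Without library 4 the share in CD4+ Tconv cells was 0.444%. Hdc was found in 18 CD4+ Tconv cells of library 4 (5.90%), 8 of library 5 (2.73%) and 4 of library 6 (2.13%), and its level per 1000000 UMIs in these cells was 64.8, 62.0 and 63.2. The level of Hdc in CD4+ Tconv cells was thus close in libraries 4 to 6, but it rested on few cells. In library 5, 1 cell held 24 of the 50 UMIs and another held 13, and in library 6 the 19 UMIs lay in 4 cells. The share of CD4+ Tconv cells with Hdc was highest in library 4, with overlapping intervals (3.53 to 9.17, 1.19 to 5.31 and 0.583 to 5.36). Thinned to 1000 UMIs, Hdc was in 2 of 155, 2 of 156 and 1 of 96 CD4+ Tconv cells of libraries 4 to 6 (1.29%, 1.28% and 1.04%). Cyp11a1 was then in 1, 0 and 1 of these cells, too few to order the libraries.

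**Figure D2:**
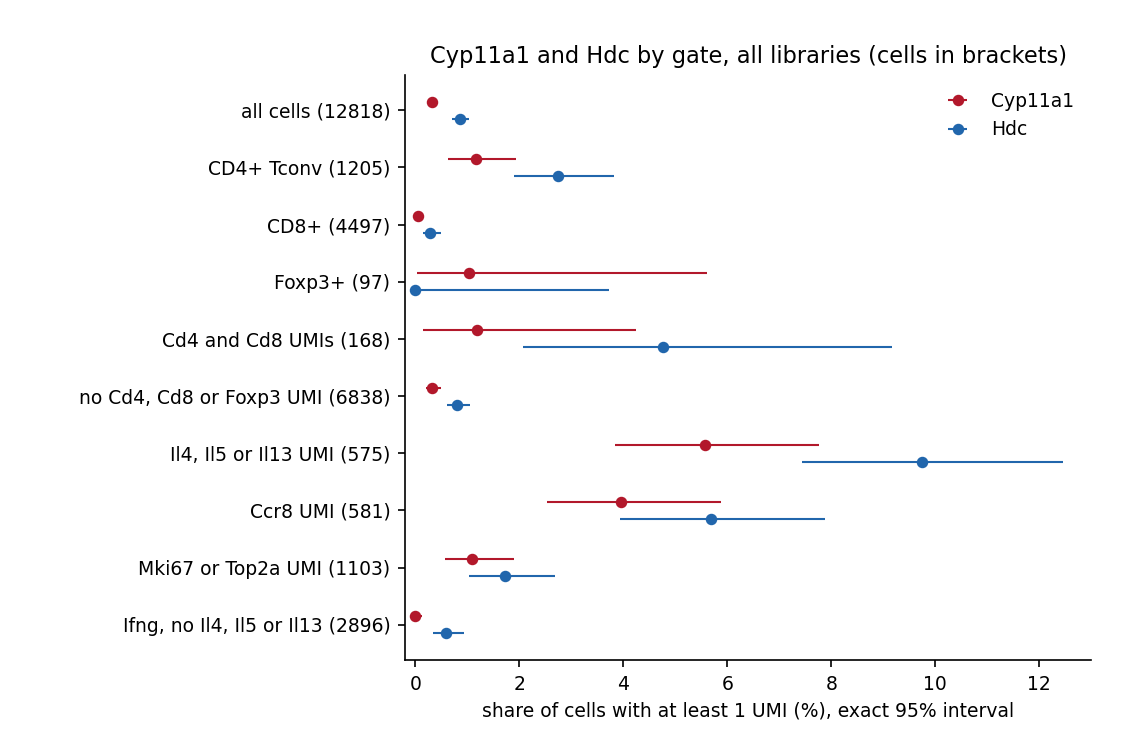
Share of cells with a Cyp11a1 or Hdc UMI (percent, exact 95% intervals) in all cells and in populations defined by UMIs of other genes, with the number of cells in brackets. Cells with Il4, Il5 or Il13 show the highest shares drawn, 5.57% for Cyp11a1 and 9.74% for Hdc, and cells with Ifng and without these cytokines sit at 0 and 0.587%.

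The cytokines of Th2 cells picked out both genes more sharply than Cd4 did. Of 575 cells with a UMI of Il4, Il5 or Il13, 32 had Cyp11a1 (5.57%, 3.84 to 7.77) and 56 had Hdc (9.74%, 7.44 to 12.5). These 575 cells held 84.9% of the Cyp11a1 UMIs and 76.4% of the Hdc UMIs. Those that also passed the gate for CD4+ Tconv cells had Cyp11a1 in 12 of 142 (8.45%, 4.44 to 14.3) and Hdc in 23 of 142 (16.2%, 10.6 to 23.3). In contrast, of 2896 cells with Ifng, the cytokine of type 1 cells, and without Il4, Il5 or Il13, 0 had Cyp11a1, which allows up to 0.104%, and 17 had Hdc (0.587%, 0.342 to 0.938). The median depth was 2488 UMIs in the former and 2017 in the latter. Cells with Ccr8, a chemokine receptor of tumor Treg and activated CD4+ cells, had Cyp11a1 in 23 of 581 (3.96%) and Hdc in 33 of 581 (5.68%). Thinned to 1000 UMIs, cells with Il4, Il5 or Il13 had Cyp11a1 in 9 of 326 (2.76%, 1.27 to 5.18) and Hdc in 21 of 326 (6.44%, 4.03 to 9.68), while CD8+ cells had them in 3 of 3059 (0.0981%) and 9 of 3059 (0.294%).

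Among cells with these cytokines, too, most Cyp11a1+ cells were in library 4. It was found there in 27 of 221 (12.2%, 8.21 to 17.3), in 4 of 157 in library 5 (2.55%) and 1 of 138 in library 6 (0.725%), and in 0 of 9, 0 of 3 and 0 of 47 in libraries 1 to 3. Hdc was found in 32 of 221 (14.5%, 10.1 to 19.8), 15 of 157 (9.55%) and 6 of 138 (4.35%) in libraries 4 to 6, and in 3 of 47 in library 3 (6.38%). Library 4 was also the deepest. Thinned to 1000 UMIs, these cells had Cyp11a1 in 7 of 131 in library 4 (5.34%, 2.18 to 10.7), 2 of 92 in library 5 (2.17%) and 0 of 83 in library 6. Hdc was then in 9 of 131 in library 4 (6.87%, 3.19 to 12.6), 9 of 92 in library 5 (9.78%, 4.57 to 17.8) and 2 of 83 in library 6 (2.41%). At 1000 UMIs library 4 was thus not the highest for Hdc, and for Cyp11a1 its interval overlapped those of libraries 5 and 6. Thinned to 1500 UMIs it was the highest for Hdc, at 21 of 163 (12.9%, 8.16 to 19.0). Library 5 then had 6 of 99 (6.06%, 2.26 to 12.7), an overlapping interval.

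The 2 transcripts were found together. Of the 41 Cyp11a1+ cells 17 also had Hdc (exact Poisson interval 9.90 to 27.2). From the rate of Hdc in all cells of the same library and depth quartile, 1.53 were expected. In library 4 there were 15 such cells against 1.30 expected, and in the other libraries 2 against 0.223. Restricting both sets to cells with Il4, Il5 or Il13 left 14 (7.65 to 23.5) against 5.37. The excess was smaller among the cells with Th2 cytokines than in the pool, and the interval still lay above the number expected.

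Each gene was also set against the cytokines. With Cyp11a1, Il4 was found in 20 cells against 4.84 expected, Il5 in 19 against 1.88 and Il13 in 22 against 3.22. Il10, which encodes an inhibitory cytokine, was found in 11 Cyp11a1+ cells (5.49 to 19.7) against 1.08, of which 9 against 0.914 in library 4 and 2 against 0.168 elsewhere. With Hdc, Il4 was found in 33 cells (22.7 to 46.3) against 9.30, Il5 in 27 against 3.01, Il13 in 34 (23.5 to 47.5) against 5.60 and Il10 in 13 (6.92 to 22.2) against 1.68. Outside library 4 the numbers for Hdc were 16 against 3.70 for Il4, 13 against 1.87 for Il13 and 4 against 0.487 for Il10. All 4 cytokines were found more often than expected with both genes. Within cells that had Il4, Il5 or Il13, Il10 was found in 9 Cyp11a1+ cells against 3.54 expected and in 11 Hdc+ cells against 4.49.

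Transcripts of the opposite kind were found less often than expected. Ifng was in 1 Cyp11a1+ cell against 20.4 expected and in 20 Hdc+ cells against 45.8. Cd8a was in 1 Cyp11a1+ cell against 16.9 and in 12 Hdc+ cells against 37.5. Cd4 was in 16 against 8.78 and in 41 against 19.2, and Gata3 in 36 against 15.5 and in 67 against 32.5. Over the pool Hdc+ cells thus kept some Cd8a and Ifng where Cyp11a1+ cells had nearly none, but most of these Hdc+ cells lay outside library 4. In library 4 Cd8a was in 2 Hdc+ cells against 17.9 expected and Ifng in 5 against 22.1. In the other libraries the numbers were 10 against 19.6 and 15 against 23.7.

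**Figure D3:**
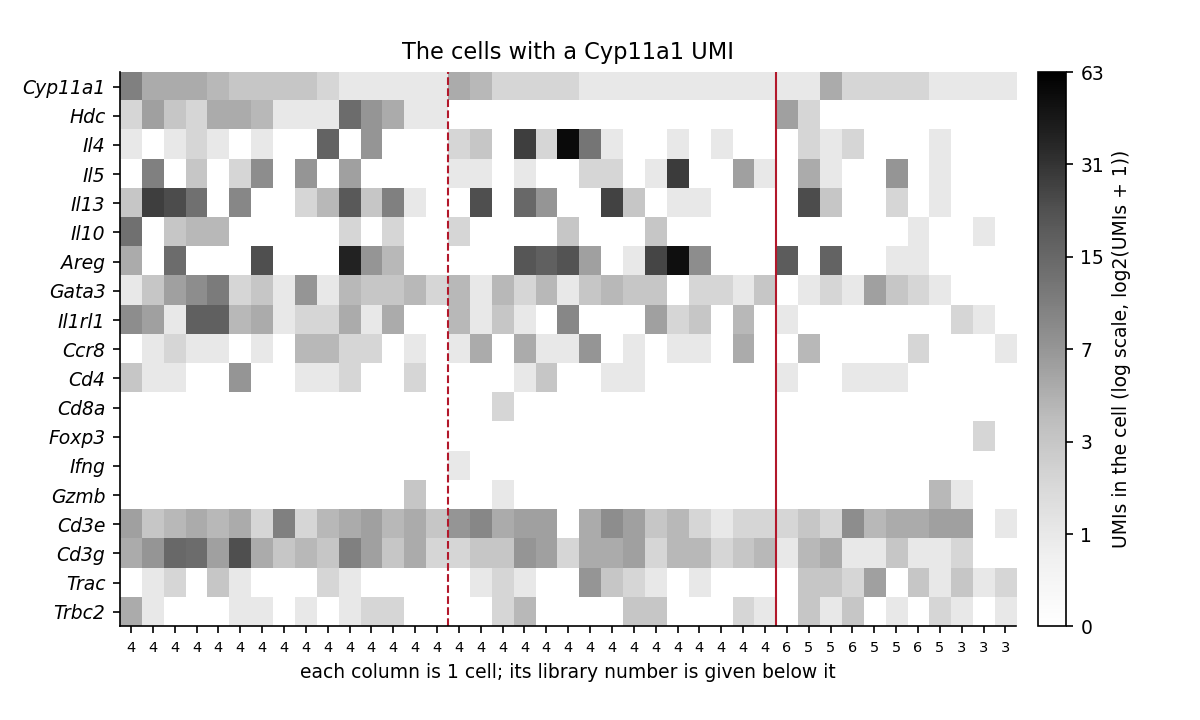
UMIs of 19 genes (log2 of UMIs plus 1, grey scale) in each of the 41 Cyp11a1+ cells, with a solid line between library 4 and the other libraries and a dashed line between cells with and without Hdc in library 4. Of the 30 cells of library 4, 15 hold Hdc, and Gata3 fills most columns (36 of 41) while Ifng and Cd8a fill 1 each.

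Both transcripts became more frequent with the amount of Il13 and Il1rl1. Il1rl1 encodes ST2, the receptor for IL-33, which drives type 2 cells in tissues. In library 4 Cyp11a1 was found in 12 of 1669 cells with 0 Il13 UMIs (0.719%), 3 of 39 with 1 (7.69%), 5 of 22 with 2 to 4 (22.7%) and 10 of 38 with 5 or more (26.3%). By Il1rl1 the shares were 0.4997%, 5.26%, 14.5% and 52.9%, the last being 9 of 17 cells (27.8 to 77.0). Hdc gave 1.32%, 10.3%, 18.2% and 34.2% by Il13, and 0.937%, 11.6%, 10.9% and 64.7% (11 of 17 cells) by Il1rl1, level over the middle bins. By Il4 the rise was uneven, at 0.874%, 10.1%, 6.06% and 16.1% for Cyp11a1 and 1.62%, 11.6%, 4.55% and 19.4% for Hdc. By Il5 and by Gata3 the shares of both rose at every step. The shares of cells with 5 or more Il1rl1 UMIs were the highest of any group given here. The median depth moved with the bins, from 2462 to 4462.5 UMIs by Il13 and from 2459 to 4279 by Il1rl1, and its part in these steps was not tested.

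**Figure D4:**
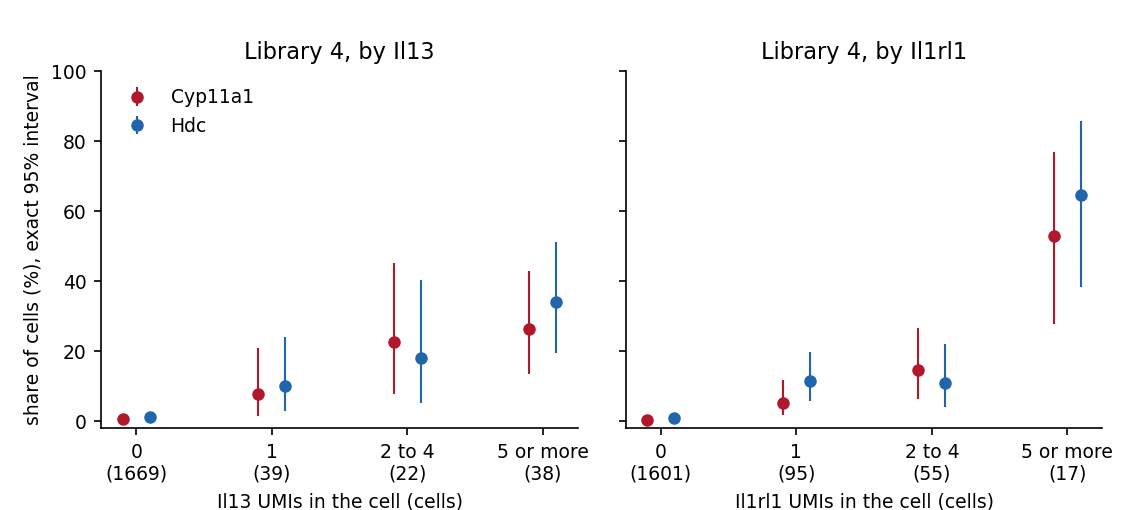
Share of library 4 cells with Cyp11a1 or Hdc (percent, exact 95% intervals) by the number of Il13 or Il1rl1 UMIs in the cell, with the number of cells in brackets. For Cyp11a1 the share climbs from 0.719% to 26.3% over the Il13 bins and from 0.4997% to 52.9% over the Il1rl1 bins.

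In library 4, levels per 10000 UMIs were compared between 15 cells with both, 15 with Cyp11a1 only, 28 with Hdc only and 175 with Il4, Il5 or Il13 but neither gene. Il10 stood at 3.33 (2.22 to 4.82), 1.22, 0.620 and 0.581 in that order. Il1rl1 stood at 8.81 (6.92 to 11.1), 5.03, 4.03 and 1.65. Both were highest in the cells with both enzymes, where 13 of the 28 Il10 UMIs came from 1 cell (1.98 per 10000 without it). Il4 stood at 3.45, 15.7 (12.8 to 19.0), 5.07 and 7.76, but 54 of the 103 UMIs in the cells with Cyp11a1 only came from 1 cell, without which their level was 7.81. Il5 stood at 4.29, 6.55, 13.5 and 1.67, but 60 of the 131 UMIs in the cells with Hdc only came from 1 cell, without which their level was 7.52. Gata3 differed little, at 7.02, 5.64, 6.0 and 4.62. The 4 sets came from 1 library, so the spread of these levels between animals could not be given. The cell with the most Cyp11a1, 10 of its 8124 UMIs, lay in library 4 and also held 2 Hdc, 13 Il10, 8 Il1rl1 and 3 Il13 UMIs.

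All other genes were then compared between positive and negative cells, as the UMIs found in positive cells over those expected from the share of UMIs that the gene took in negative cells of the same library and depth quartile. Depth quartiles of a library without both kinds of cell were left out. That kept 41 positive and 3805 negative cells for Cyp11a1, and 109 and 10987 for Hdc. A gene needed 20 UMIs over both sets, and a ratio above 2 or below 0.5 was counted, whatever its interval. Of 10197 genes in the Cyp11a1 comparison 1125 lay over 2-fold higher (11%) and 2526 over 2-fold lower (24.8%). Of 11141 genes in the Hdc comparison the counts were 1049 (9.42%) and 2382 (21.4%). With so few positive cells many low genes pass either limit by counting error alone, and the counts for gene lists below should be set beside these shares. The median log2 ratio over all genes was -0.11 in both comparisons.

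Named here are the 12 highest genes with at least 20 UMIs in positive cells, found in at least 10 of them and higher in every library with at least 10 positive cells, which for Cyp11a1 was library 4 alone. The highest of these in Cyp11a1+ cells was Hdc, with 66 UMIs against 3.85 expected (17.1-fold, 13.2 to 21.8). Il5 followed with 93 against 6.50 (14.3-fold) and Prxl2a with 82 against 5.80 (14.1-fold). Il1rl1 had 111 against 8.03 (13.8-fold, 11.4 to 16.6), and Il1r2, a decoy receptor for IL-1, 78 against 6.21 (12.6-fold). Cytokines, and receptors for cytokines, were thus among the leading genes. Il10 had 38 against 2.96 (12.9-fold, 9.10 to 17.6) and Il13 218 against 18.1 (12.1-fold, 10.5 to 13.8). Ramp1, part of the receptor for the neuropeptide CGRP, had 73 against 6.07 (12.02-fold), and Ltb4r1, the receptor for leukotriene B4, 83 against 7.58 (10.9-fold). Igfbp7, Plin2, which coats lipid droplets, and the actin-severing protein gene Gsn closed the 12 at 9.29-, 8.15- and 7.91-fold. Most of these UMIs lay in library 4, where the ratios of Hdc, Il5, Il1rl1, Il10 and Il13 were 20.9, 14, 15.4, 13.9 and 12.3. Without library 4, Hdc stood at 7.46, Il1rl1 at 3.76, Prxl2a at 4.05, Il10 at 5.58, Il1r2 at 1.70, Plin2 at 16.2 and Gsn at 13.01.

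The 6 lowest genes in Cyp11a1+ cells, among those with at least 20 expected UMIs, were mostly those of cytotoxic cells. Ccl4 had 1 UMI against 119 expected, Ccl3 0 against 20.8 and Xcl1 0 against 22.5, all chemokines of activated CD8+ and natural killer cells. Klrk1, which encodes NKG2D, had 0 against 27.2, Slamf7 0 against 20.4 and the receptor segment Trbv3 0 against 36.6.

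By the same rule Il5 led in Hdc+ cells with 226 UMIs against 7.97 expected (28.4-fold), and its ratio was 52.7, 29.0, 17.7 and 29.7 in libraries 3 to 6, the libraries with at least 10 Hdc+ cells each. Il1rl1 had 146 against 12.2 (12-fold), with 8.73, 13.8, 5.85 and 17.1 in those libraries. Ramp3, of the same family as Ramp1, had 145 against 20.5 (7.08-fold), with 6.33, 6.99, 7.70 and 10.99. These genes were thus higher in each of libraries 3 to 6. Prxl2a, Ltb4r1 and Ramp1 were again among the 12 highest, at 7.93-, 7.80- and 6.04-fold. The rest were Asb2 at 7.90-fold, the oxidase of the endoplasmic reticulum Ero1l at 7.20-fold, Ipmk at 7.05-fold, Ier3 at 6.52-fold, the stress factor Atf3 at 6.13-fold and the lysosomal enzyme gene Glb1 at 5.52-fold. Il13, Il10 and Calca did not meet the rule in every library, but over all cells their ratios were 15.6, 13.1 and 17.5, the last 6.22 without library 4. Prxl2a, Ramp1, Ero1l, Ier3, Atf3 and Glb1 also lay lower without library 4, at 3.83, 3.16, 4.41, 3.05, 3.55 and 2.77. Cyp11a1 itself had 50 UMIs in Hdc+ cells against 1.61 (31.1-fold, 23.1 to 41.0), 48 of them in library 4. The lowest were again mostly genes of cytotoxic and innate-like cells, with Cd160 at 1 UMI against 25.5, Klrc1 at 14 against 112 and Gzma at 86 against 668. Ly6c2 was at 62 against 421, Jaml at 4 against 24.0 and the receptor segment Trbv1 at 2 against 31.3. Without library 4 the ratios of these 6 ran from 0.0816 for Cd160 to 0.345 for Jaml, and without library 5 or 6 they stayed below 1 as well.

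The list of Th2 regulators and receptors had 10 of 15 tested genes over 2-fold higher and 0 lower in Cyp11a1+ cells, with a median log2 ratio of 1.20. In Hdc+ cells it was 10 of 16 higher and 0 lower, with a median of 1.10. Gata3 had 112 UMIs against 31.9 in Cyp11a1+ cells (3.52-fold) and 194 against 55.6 in Hdc+ cells (3.49-fold). Pparg, a lipid-sensing receptor of type 2 cells, had 12 against 1.26 (9.49-fold) in Cyp11a1+ cells. Without library 4 these ratios with Cyp11a1 were 2.28 for Gata3 and 4.66 for Pparg. Ccr8 had 54 against 8.20 (6.59-fold).

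The list of Th2 cytokines gave 5 of 7 higher and 1 lower in Cyp11a1+ cells (median 2.96) and 7 of 8 higher in Hdc+ cells (median 3.33). Il4 had 138 against 20.02 (6.89-fold, 2.04 without library 4) in Cyp11a1+ cells and 131 against 33.3 (3.94-fold) in Hdc+ cells. Areg, a growth factor of type 2 and regulatory cells, had 274 against 34.8 (7.88-fold) and 428 against 48.4 (8.83-fold). Csf2 differed in direction, with 8 against 26.8 (0.299-fold) in Cyp11a1+ cells and 165 against 41.8 (3.95-fold) in Hdc+ cells. That Hdc value rests on 1 library, since the ratio was 0.596 without library 5 and 0.531 within library 4. The type 1 list ran the other way, with 12 of 12 lower in Cyp11a1+ cells (median -2.53) and 9 of 12 lower in Hdc+ cells (median -1.39). Outside library 4, 7 of 12 were lower with Cyp11a1 (median -1.23), where 3983 of 9206 genes of any kind were lower. Ifng had 1 UMI against 110 in Cyp11a1+ cells and 73 against 202 in Hdc+ cells (0.361-fold). Ccl5 had 31 against 931 (0.0333-fold) and 774 against 1865 (0.415-fold), but in Hdc+ cells its ratio was 0.0451 in library 4 and 0.820 in the other libraries.

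The steroid pathway beyond Cyp11a1 showed no common direction. Of 34 genes of the list 20 have a row in the table and 16 could be tested in Cyp11a1+ cells, of which 2 were over 2-fold higher and 4 lower (median log2 ratio -0.17). Fdx1, the ferredoxin that hands electrons to Cyp11a1, had 9 UMIs against 9.95 (0.904-fold), and its reductase Fdxr 2 against 2.63. Tspo, an outer mitochondrial membrane protein linked to cholesterol, had 62 against 76.0 (0.816-fold), and the cholesterol carrier gene Stard4 5 against 5.85. These ratios were close to 1 or rested on few UMIs. Star was below the minimum, with 0 UMIs in Cyp11a1+ cells and 5 over both sets. Cyb5a, which encodes cytochrome b5, had 65 against 31.3 (2.08-fold, 1.61 to 2.65), and the other gene past the limit, Hsd17b11, rested on 2 UMIs. Hsd11b1, which regenerates active glucocorticoid, had 1 against 9.47 (0.106-fold), or 0.656 without library 4. Hsd3b1, Hsd3b6, Cyp17a1, Cyp21a1, Cyp11b1, Cyp11b2 and Cyp19a1, the genes for the later steps to progestins, glucocorticoids, mineralocorticoids and sex steroids, have no row in the table analysed here.

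In Hdc+ cells 0 of the 16 tested steroid genes were over 2-fold higher and 3 lower. Fdx1 had 32 UMIs against 17.0 (1.89-fold, 1.29 to 2.66) and Cyb5a 105 against 57.4 (1.83-fold), while Hsd11b1 had 2 against 16.3 (0.123-fold).

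Cholesterol supply and steroid receptors showed few genes past 2-fold. Of 23 tested cholesterol genes 4 were over 2-fold higher and 4 lower in Cyp11a1+ cells (median log2 ratio 0.28, against -0.11 over all genes), and of 24 in Hdc+ cells 2 were higher and 4 lower (median 0.01). Of 10 tested steroid receptor and response genes 0 were higher and 1 lower in Cyp11a1+ cells (median 0.39), and of 11 in Hdc+ cells 1 was higher and 1 lower (median -0.01). Idi1, an enzyme of isoprenoid synthesis, had 14 against 4.82 (2.90-fold, 1.57 to 4.87) in Cyp11a1+ cells. Nr3c1, the glucocorticoid receptor gene, had 27 against 14.4 (1.87-fold, 1.23 to 2.72) and 51 against 25.1 (2.03-fold, 1.51 to 2.67). Its targets did not move with it in one direction. Tsc22d3 had 49 against 51.5 (0.951-fold) in Cyp11a1+ cells and 76 against 103 (0.735-fold) in Hdc+ cells, while Dusp1 had 177 against 115 (1.54-fold) and 339 against 207 (1.63-fold).

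Of the 12 genes of histamine handling, storage and reception 6 have a row, and the enzymes that degrade histamine, Hnmt and Aoc1, are not among them. The 4 that could be tested had 0 higher and 2 lower in each comparison. Hrh4, the receptor of blood cells, had 0 UMIs against 2.26 in Cyp11a1+ cells and 1 against 3.81 in Hdc+ cells. Hrh2 had 1 against 1.10 and 1 against 1.92. Slc18a2, the transporter that loads histamine into granules, had 0 UMIs in both and 15 in the whole Hdc comparison. Odc1, the decarboxylase of polyamine synthesis, had 125 against 85.2 (1.47-fold) and 274 against 180 (1.52-fold).

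**Figure D5:**
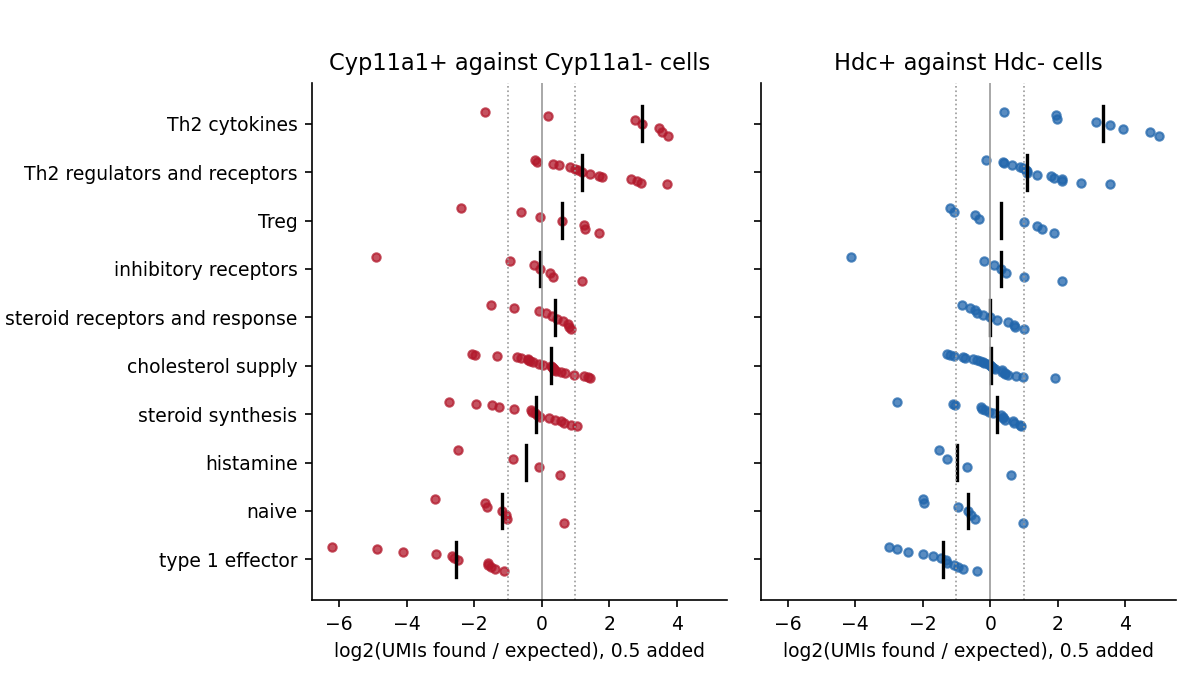
Log2 ratio of UMIs found to UMIs expected for each tested gene of the lists, in Cyp11a1+ and Hdc+ cells, with a black bar at the median and dotted lines at 2-fold. The medians of the Th2 lists lie above 0 (2.96 and 1.20 with Cyp11a1, 3.33 and 1.10 with Hdc), that of the type 1 list lies below (-2.53 and -1.39), and the steroid list is centred near 0 (-0.17 and 0.20).

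Other programs moved less or unevenly. Of 7 tested Treg genes 3 were over 2-fold higher and 2 lower in Cyp11a1+ cells, and of 8 in Hdc+ cells 4 were higher and 2 lower. Of 7 inhibitory receptor genes 1 was higher and 1 lower in Cyp11a1+ cells, and 2 higher and 1 lower in Hdc+ cells. Lag3 was the gene most raised of these, with 22 against 9.34 (2.36-fold) and 62 against 13.9 (4.45-fold), although without library 4 it had 0 UMIs in Cyp11a1+ cells. Tnfrsf4, which encodes OX40, had 173 against 72.0 (2.40-fold) in Cyp11a1+ cells, and this turned to 0.853 among cells with Il4, Il5 or Il13. Of 7 naive genes 6 were over 2-fold lower in Cyp11a1+ cells, and 2 of 7 in Hdc+ cells, a share near that of all genes (21.4%). Outside library 4, 3 of 7 naive genes were lower with Cyp11a1, but so were 3983 of 9206 genes of any kind. Trac had 52 against 110 in Cyp11a1+ cells (0.473-fold), of which 28 against 84.7 in library 4 and 24 against 25.3 elsewhere, while Cd3g had 187 against 135 (1.38-fold).

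To set the positive cells against cells of the same kind, the comparison was repeated among the 575 cells with Il4, Il5 or Il13. The matching kept 32 positive and 311 negative cells for Cyp11a1, and 56 and 408 for Hdc. Among these 314 of 6000 genes were over 2-fold higher in Cyp11a1+ cells (5.23%) and 831 lower (13.8%). For Hdc, 272 of 6409 were higher (4.24%) and 709 lower (11.1%). Hdc kept a ratio of 3.05 in Cyp11a1+ cells (58 UMIs against 19.0, 2.32 to 3.95), and Cyp11a1 6.91 in Hdc+ cells (45 against 6.51, 5.04 to 9.25). Il1rl1 had 103 against 22.8 (4.52-fold, 3.69 to 5.48) with Cyp11a1 and a ratio of 3.95 with Hdc. Il10 had 36 against 10.7 (3.35-fold, 2.35 to 4.64) and 38 against 11.7 (3.25-fold). These ratios were smaller than in the full set of cells, and their intervals lay above 1. Gata3 stood at 1.41 and 1.62, and Il4, which helped define the set, at 1.31 (1.10 to 1.55) with Cyp11a1 and 0.810 with Hdc. Calca, the gene for CGRP, had a ratio of 5.65 with Hdc and 2.0 with Cyp11a1, and Lag3 kept 4.28 with Hdc.

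The genes whose presence across all 12818 cells was most like that of Cyp11a1 were ranked by the odds ratio of co-detection pooled over libraries and depth quartiles, among 2061 genes seen in at least 30 cells and in at least 10 together with Cyp11a1. Hdc came first (32.4), followed by Il5 (26.0), Il13 (22.1), Ltb4r1 (21.0), Il10 (20.5), Gata3 (19.97), Ramp1 (19.7), Prxl2a (17.9), Il1rl1 (16.9) and Mrpl33 (16.6). For Hdc, over 3699 genes ranked by the same rule, Cyp11a1 came first (32.4), followed by Il5 (17.9), Il10 (14.2), Il13 (13.2), Irs2 (11.4), Calca (11.4), Il1rl1 (10.9), Ltb4r1 (10.1), Igfbp7 (9.49) and Neb (9.48). Each gene was thus the nearest of the other, and Il4 ranked only 20 and 27, with odds ratios of 9.02 and 5.76. The cells are those of 1 pool and share library and depth, so these ratios describe the pool and carry no test.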

How the data were processed

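Live TCRβ+ cells from 6 samples (3 PBS, 3 DTx) were profiled by 5′ droplet sequencing. The authors mapped reads to mm10 (their GEO processing notes name mm9), merged libraries with Cell Ranger, and kept in Seurat cells with 200 to 2500 genes and under 5% mitochondrial reads. The deposited values are UMI counts per gene and cell, not normalized, 21816565 in all. The annotation was not given in the sources used here. No label ties barcode numbers to samples, so 0 cells were assigned to PBS or DTx.

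Cells were grouped by UMI presence. Shares carry exact Clopper-Pearson and UMI counts exact Poisson 95% intervals, and 0 is given with the limit that 3 counts allow. Ratios compare UMIs found with those expected within each of 6 libraries and 4 depth quartiles. 0.5 was added on the log2 scale. No significance test was run. Dixon's gap ratio over libraries only marked values for listing. Named genes were the members of fixed lists, the 12 highest and 6 lowest genes under the count minimums in the text, and the 10 most alike by Mantel-Haenszel odds ratio. Members and lists were chosen with earlier results of these data known. Lists were steroid synthesis, steroid receptors, cholesterol supply, histamine, Th2 cytokines, Th2 regulators, type 1, inhibitory receptor, Treg and naive genes and cell type markers. Motifs were searched in RefSeq upstream sequences (GRCm38.p6) for both genes. The ratio calculation was tested on simulated data. Python 3.11.15, NumPy 2.4.6, SciPy 1.17.1, pandas 2.3.3 and matplotlib 3.10.9 were used. Alternatives were thinning, at least 2 UMIs, other matching, other gene minimums, other cell sets and leaving out each library.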

Additional observations from a re-analysis of the deposited data

Results flagged for a closer look

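Library 4 stood highest of the 6 libraries for Cyp11a1 on 4 measures, with a gap to the next library, as a share of the whole range, above Dixon's 95% limit. In groups not chosen for their values chance exceeds it in about 1 of 20. Cyp11a1 was picked partly for its pattern over these libraries, so the limit serves only to list the values and is no test. They were the share of all cells (1.70%, gap 0.852 of the range), the UMIs per 1000000 (14.4, gap 0.851), the share of CD4+ Tconv cells (3.28%, gap 0.676) and the share of cells with Il4, Il5 or Il13 (12.2%, gap 0.791). The 4 measures rest on the same 30 cells. The same gaps for Hdc were 0.479, 0.463, 0.537 and 0.340. Library 4 also had the highest median depth (2499.5 UMIs). With cells thinned to 1000 UMIs, the share with Cyp11a1 was 0.774% in library 4 (0.413 to 1.32), 0.427% in library 3 (0.0518 to 1.54) and 0 to 0.142% in libraries 1, 2, 5 and 6.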

How the results depend on the processing

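The limits are the few positive cells, the pooling of libraries and the gates by UMI presence, which miss shallow cells. No paired analysis was possible because the library numbers are tied to no sample. Of the values that answer a comparison, 157 under an alternative stayed within the spread or within 1.5 times of the value given and 48 moved, and of the values of single genes 2071 stayed, 371 moved and 17 changed direction. The fit to library 4 alone was chosen after seeing the data. Thinned to 500 and 1500 UMIs, or with at least 2 UMIs required, Cyp11a1 was found in 0.116%, 0.496% and 0.164% of all cells, and in CD4+ Tconv cells in 0 at 500 and 0.358% at 1000 UMIs. Hdc was found in 0.333%, 0.666% and 1.17% of all cells at 500, 1000 and 1500 UMIs and in 0.374% with at least 2, and in CD4+ Tconv cells in 1.19% at 500, 1.08% at 1000 and 1.49% with at least 2. A fixed depth drops molecules and shallow cells by construction.

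Leaving out each library in turn gave Cyp11a1 in 0.0995 to 0.403% of all cells and 0.444 to 1.33% of CD4+ Tconv cells, and Hdc in 0.597 to 1.02% and 1.67 to 3.13%, each lowest without library 4. Co-detection, as cells found over cells expected, was 8.99 to 11.7 for Cyp11a1 with Hdc, 9.45 to 11.9 with Il10, 6.28 to 8.35 with Il13 and 3.95 to 4.77 with Il4. For Hdc it was 7.05 to 8.22 with Il10, 5.78 to 6.94 with Il13 and 2.89 to 4.32 with Il4. Genes over 2-fold higher and lower numbered 1078 to 1616 and 2405 to 3983 for Cyp11a1, and 1011 to 1098 and 2266 to 3020 for Hdc.

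Co-detection rested most on the matching. Matched by library only, it was 20.3 for Cyp11a1 with Hdc, 11.8 with Il13 and 20.9 with Il10, and 9.89 and 13.7 for Hdc with Il13 and Il10, against 11.1, 6.83, 10.2, 6.07 and 7.75 with depth matched too. With no matching it was 48.8, 14.1, 35.3 and 50.6 for Cyp11a1 with Hdc, Il4, Il13 and Il10, and 8.72, 20.5 and 22.5 for Hdc with Il4, Il13 and Il10. The matching by library and depth was kept among CD4+ Tconv cells alone. There Cyp11a1 with Hdc, Il4, Il13 and Il10 fell to 4.89, 1.62, 3.61 and 2.62, from 11.1, 4.13, 6.83 and 10.2. Hdc with Il4, Il13 and Il10 fell to 1.58, 2.78 and 3.13, from 3.55, 6.07 and 7.75. All stayed above 1. The cause of this fall was not tested.

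Genes lower in Cyp11a1+ cells numbered 1672 with a minimum of 50 UMIs and 6084 with none. Genes higher in Hdc+ cells numbered 699 with a minimum of 50, and genes lower 5303 with none. Among CD4+ Tconv cells, genes higher and lower numbered 457 and 1364 for Cyp11a1 and 535 and 1194 for Hdc, and among cells with Il4, Il5 or Il13 314 and 831, and 272 and 709, in both cases with fewer genes tested. Directions reversed among CD4+ Tconv cells for Maf (0.996) and Tnfrsf4 (0.904) with Cyp11a1 and Ctla4 (0.647) with Hdc. Among cells with Il4, Il5 or Il13 they reversed for Tnfrsf4 (0.853) with Cyp11a1, and for Ccr4 (0.707) and Il4 (0.810) with Hdc. In library 4 alone Csf2 was at 0.531 with Hdc. Leaving out each library, the ratios with Cyp11a1 ran from 0 to 11.4 for Calca, 0 to 2.74 for Hsd17b11, 0 to 2.75 for Lag3, 0 to 2.50 for Lss, 0.910 to 3.85 for Il2ra, 0.330 to 1.20 for Tcf7 and 0.188 to 1.06 for Trbc1, each turning without library 4. With Hdc they ran from 0.734 to 2.27 for Soat1 (turning without library 4), 0.596 to 7.30 for Csf2 (library 5) and 0 to 6.96 for Il17rb (library 6). The cause of these reversals was not tested.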

Other observations

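Il31, a cytokine of type 2 cells, had 23 UMIs in Hdc+ cells against 0.237 expected, all of them in 1 cell, and was in no other Hdc+ cell. The gene was named after its values were seen, and the single cell gives no measure of a group.

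Variable segments of the T cell receptor can mark cells that descend from one clone, and 2 segments were looked at after their values were seen. In Cyp11a1+ cells Trbv13-1 was found in 13 of 41 against 4.91 expected, all 13 in library 4 (4.24 expected there) and 0 against 0.674 in the others. Trav7-4 was found in 9 against 1.51, all 9 in library 4 (1.27 expected there) and 0 against 0.241 in the others. In Hdc+ cells Trbv13-1 was found in 15 cells against 6.01 in library 4 and 5 against 3.64 elsewhere, and Trav7-4 in 8 against 1.66 and 0 against 1.22. Both segments together were in 33 cells, 22 of them in library 4. Of those 22, 15 had Il4, Il5 or Il13, against 0 of the 11 in the other libraries. Cyp11a1 was found in 6 of the 22 (27.3%, 10.7 to 50.2) and Hdc in 4 (18.2%), and in the 206 other cells of library 4 with Il4, Il5 or Il13 in 21 (10.2%, 6.42 to 15.2) and 28 (13.6%). The intervals overlapped for both genes. Receptor sequences were not analysed here, so a shared segment is not a shared clone.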
